A study of Mus musculus with 26 samples.

Results

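The comparison described here set the full Nap1l1 knockout against wild type in mouse embryonic stem cells (ESC) at day 0, before retinoic acid was added. It rests on 5 of the 26 libraries of the series, chosen by their labels: 3 from wild-type KH2 cells (WT) and 2 from KH2 cells with the genotype NAP1L1 knock-out, titled full-KO (fullKO). KH2 is an established male mouse ESC line built for inducible transgenes. The series also holds 3 libraries of a line labelled NAP1L1 alpha knock-out (alphaKO) at day 0, and libraries of all 3 genotypes after 2 and 4 days of retinoic acid, which supply part of the shared estimate of spread and are otherwise used where the day 0 comparison is followed further. All libraries are from the same parent line, and the labels name no other allele or agent at day 0. The fullKO libraries carry a common prefix (C20) in their names, so they may stand for 1 cell line, and differences between cell lines cannot be told apart from differences of genotype. The labels do not say whether the libraries of a genotype were separate cultures. The p-values therefore measure the spread between these libraries, which may be technical.

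NAP1L1 is a histone chaperone of the nucleosome assembly protein family. It binds histones H2A and H2B, carries them between cytoplasm and nucleus, and takes part in placing them on and removing them from DNA. Mouse ESC can be held in a naive state, marked by factors such as NANOG, ESRRB, KLF4 and TFCP2L1. From there they pass through a formative state, in which FGF5, OTX2 and the de novo DNA methyltransferases rise, before they choose a lineage. Retinoic acid drives ESC out of pluripotency and activates Hox genes.

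Levels are given as CPM, read counts scaled to a common library size by edgeR's TMM method. Differences are given as log2 fold change of fullKO over WT ± SE. This SE was worked back from the edgeR test described next, as the absolute log2 fold change over the square root of its F statistic. A gene is said to have risen or fallen where edgeR's quasi-likelihood test gave a Benjamini-Hochberg adjusted p under 0.05 over all 18412 genes tested. Of these genes, 2983 rose (16.2%) and 3267 fell (17.7%). By the stricter rule of at least a 2-fold difference, 677 rose (3.68%) and 1268 fell (6.89%). The median log2 fold change of all genes was -0.006. Adjusted p values below come from this fit unless another is named.

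Nap1l1 itself (ENSMUSG00000058799.16, GRCm38 chr10:111473223-111498150) was lower in fullKO but did not vanish. It stood at 1010, 997 and 1068 CPM in the WT libraries and at 397 and 401 CPM in the fullKO libraries, so the groups did not overlap. The log2 fold change was -1.36 ± 0.04 (adjusted p = 1e-27). In alphaKO the same gene differed from WT by -0.78, and the test between the knockouts put fullKO below alphaKO by -0.59 (adjusted p = 8.38e-15). The labels do not say which part of the gene was altered, and a count over the whole gene does not show what the remaining transcripts encode.

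The other 10 genes of the family showed little. Nap1l4, the widely expressed paralogue, stood at 196, 205 and 194 CPM in WT and 211 and 209 CPM in fullKO, a log2 fold change of 0.09 ± 0.05 that did not pass the test (adjusted p = 0.154). Set, another family member that also binds histones, had a log2 fold change of -0.09 ± 0.04 (adjusted p = 0.0664), and it was called lower with DESeq2, with RLE scaling, with a filter of 1 CPM and without fullKO replicate 1. Nap1l3, a gene at about the detection limit, rose from between 1.19 and 1.75 CPM in WT to 2.08 and 2.84 CPM (0.81 ± 0.31, adjusted p = 0.0365). That call was lost without WT replicate 2, without WT replicate 3 and without fullKO replicate 2, which left 0 family members higher, and also with no filter on low counts (adjusted p = 0.0636) and when the 5 libraries were fitted alone (0.0576).

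Among 26 histone chaperones outside the family, 4 rose and 4 fell (15.4% each), with a median log2 fold change of 0.01. These shares lie near the 16.2% and 17.7% of all genes tested. Without fullKO replicate 2 only 2 fell. Hjurp, the chaperone of the centromeric histone CENP-A, rose from 193, 191 and 215 CPM to 360 and 371 CPM (0.87 ± 0.05). Ncl, encoding nucleolin, rose by 0.58 ± 0.04, from between 5351 and 5545 CPM to 8390 and 7975 CPM. Both genes lie on chromosome 1, whose genes were raised as a group (described further on). Asf1b, which hands H3-H4 dimers to assembly factors, rose by 0.43 ± 0.08, and Rbbp7, a histone-binding subunit of several chromatin complexes, fell by 0.35.

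Of 16 histone variant genes, 11 passed the filter on low counts. Of these 5 rose (45.5%) and none fell, against 16.2% and 17.7% of all genes tested. The macroH2A genes rose the most. H2afy, encoding macroH2A1, stood at 82.9, 82.7 and 78.0 CPM in WT and at 178 and 189 CPM in fullKO (1.17 ± 0.06, adjusted p = 1.07e-21). H2afy2, encoding macroH2A2, stood at 42.9, 47.2 and 39.9 CPM against 104 and 97.0 CPM (1.21 ± 0.07, adjusted p = 1.31e-18). The 3 other calls were of 0.26 or less, and without fullKO replicate 1 the count was 2.

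**Figure D1:**
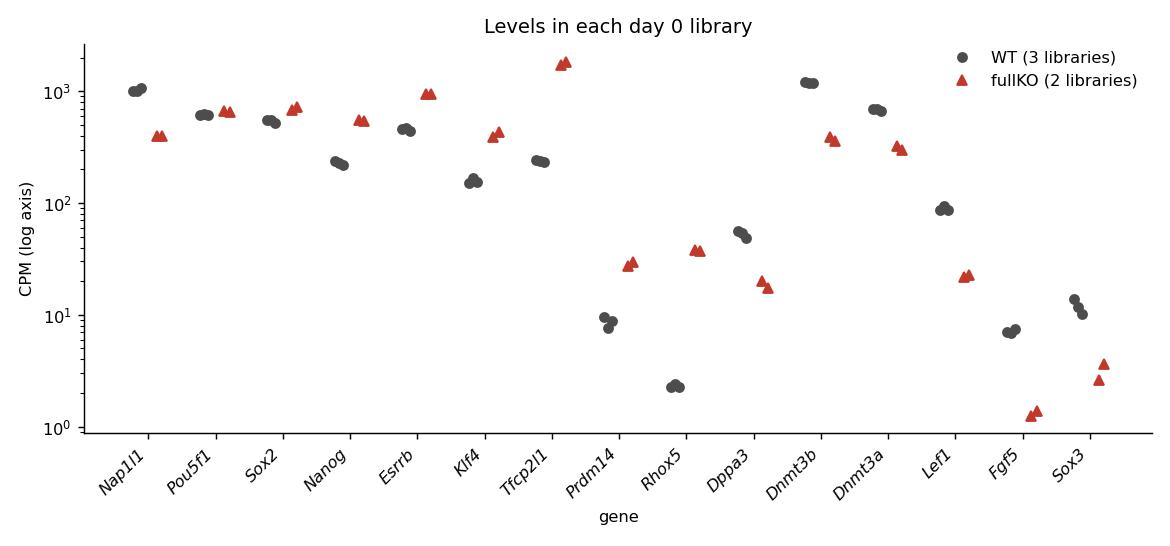
Level of 15 genes in each day 0 library, in CPM on a log axis; grey circles are the 3 WT libraries and red triangles the 2 fullKO libraries, 1 point per library. Nap1l1 lies between 997 and 1068 CPM in WT and at 397 and 401 CPM in fullKO, Tfcp2l1 and Rhox5 lie higher in fullKO, and Dnmt3b, Lef1 and Fgf5 lie lower.

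Some features of the libraries as a whole go beside the other gene groups. Total counts ran from 16498896 to 18748898 per library. The ESC markers Pou5f1, Sox2, Nanog, Esrrb, Zfp42, Sall4, Dppa5a and Tdgf1 were expressed in all 5 libraries, at 165.8 CPM or more. The fibroblast list, drawn up as a check for feeder cells, summed to 3186, 4213 and 3613 CPM in the WT libraries and to 749 and 563 CPM in fullKO. It held 20 genes, of which none rose and 19 fell, with a median log2 fold change of -2.48, and none of them was at 0 in either group. In alphaKO the list summed to 1846, 1982 and 2754 CPM, between the other genotypes. The labels do not say whether cells were grown on feeders, and in bulk RNA fewer cells of a type and less RNA per cell cannot be told apart. Genes encoded on the mitochondrial genome took 1.08% and 1.12% of counts in fullKO against 1.3% to 1.55% in WT. That share covers only part of the mitochondrial genome, since 6 of its 13 respiratory chain genes are listed at 0 counts in these libraries. Of 6 Y-linked genes tested 4 fell, Ddx3y from between 48.9 and 50.6 CPM to 17.7 and 17.04 CPM, and a long stretch of chromosome 1 was raised.

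Naive pluripotency genes were higher in fullKO. Of 17 measured, 14 rose and 1 fell, against 16.2% and 17.7% of all genes, and their median log2 fold change was 0.58. The list summed to 2439, 2557 and 2387 CPM in WT and to 5568 and 5769 CPM in fullKO, and Tfcp2l1 alone made up much of that difference. Tfcp2l1 and Prdm14 lie on chromosome 1, whose genes were raised as a group. Tfcp2l1, a factor that sustains self-renewal downstream of LIF, rose most, from 243, 238 and 234 CPM to 1732 and 1841 CPM (2.91 ± 0.05, adjusted p = 9.04e-39). Nanog, a core factor of naive cells, rose from 237, 230 and 219 CPM to 549 and 539 CPM (1.25 ± 0.05). The fullKO libraries lay above every WT library for each of these genes.

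Klf4, a LIF-responsive factor, stood at 151, 166 and 153 CPM in WT against 394 and 434 CPM in fullKO (1.40 ± 0.06). Esrrb, an orphan nuclear receptor of the naive network, went from 455, 472 and 445 CPM to 945 and 952 CPM (1.05 ± 0.04). Smaller in level but similar in size of change were Tbx3 (1.80 ± 0.06), Tcl1 (1.75 ± 0.10) and Prdm14 (1.72 ± 0.13), of which Prdm14 represses FGF signalling and DNA methyltransferases. Zfp42, the marker also known as Rex1, rose by 0.54 ± 0.06. Fgf4 and Socs3 did not pass the test. The exception was Dppa3, also known as Stella, which protects the maternal genome from demethylation and varies from cell to cell in ESC. It fell from 56.1, 54.1 and 48.7 CPM to 20.2 and 17.3 CPM (-1.50 ± 0.14, adjusted p = 1.57e-12).

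General pluripotency genes, which naive and primed cells share, showed smaller differences. Of 15 measured, 2 rose (13.3%), 7 fell (46.7%) and 6 did not pass the test, with a median of -0.13. Of all genes tested 16.2% rose and 17.7% fell. Pou5f1, encoding OCT4, stood at 615, 621 and 611 CPM in WT and 662 and 648 CPM in fullKO (0.09 ± 0.05, adjusted p = 0.216, or 0.0346 when the 5 libraries were fitted alone). Sox2, its partner, rose from 557, 550 and 523 CPM to 678 and 729 CPM (0.37 ± 0.05), and Fbxo15 rose by 0.53 ± 0.05. Dppa5a, an RNA-binding ESC marker, fell by 0.38, and Lin28b, which blocks maturation of the let-7 microRNAs, fell by 0.41. The rise of the naive list thus came with log2 differences of at most 0.53 in size among the general markers.

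Genes of the formative and primed states were lower, beside shares of 16.2% higher and 17.7% lower among all genes tested. Of 18 measured, 15 fell and none rose, with a median log2 fold change of -1.12, and the summed level dropped from between 3270 and 3371 CPM in WT to 1749 and 1692 CPM. Fgf5, the ligand that marks the formative epiblast, went from 7.01, 6.89 and 7.39 CPM to 1.25 and 1.39 CPM (-2.42 ± 0.28, adjusted p = 1.03e-09). Lef1, a transcription factor that carries Wnt signals, went from 86.2, 93.2 and 86.0 CPM to 22.0 and 22.7 CPM (-1.99 ± 0.10). Sox3, a SOXB1 factor of the epiblast and neural plate, went from between 10.2 and 13.8 CPM to 2.62 and 3.63 CPM (-1.94 ± 0.20). For these genes the groups did not overlap. Otx2, a factor that directs exit from the naive state, fell by 1.12, and Pou3f1, its formative partner also known as OCT6, fell by 1.63. Etv4, Etv5 and Nodal did not pass the test, with log2 fold changes of 0.09, -0.10 and 0.11.

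The enzymes that write DNA methylation were part of this fall. Dnmt3b, a de novo methyltransferase, stood at 1208, 1190 and 1187 CPM in WT and at 394 and 362 CPM in fullKO (-1.66 ± 0.05, adjusted p = 2.09e-28). Dnmt3a, the second de novo enzyme, stood at 688, 692 and 663 CPM against 325 and 298 CPM (-1.13 ± 0.06). Dnmt3l, the catalytically inactive cofactor of both, fell from between 414 and 420 CPM to 217 and 189 CPM (-1.03 ± 0.07), and Dnmt1, the maintenance enzyme, fell by 0.59. Of the 16 methylation genes, which include readers and erasers, 9 fell and 5 rose, against 17.7% and 16.2% of all genes tested. Among those that rose were Tet2, which oxidises methylcytosine (0.59 ± 0.06), Zfp57, which guards imprints (0.46 ± 0.06), and Uhrf1, the partner of DNMT1 (0.21 ± 0.04). RNA levels say nothing about methylation itself, which was not measured in these libraries.

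**Figure D2:**
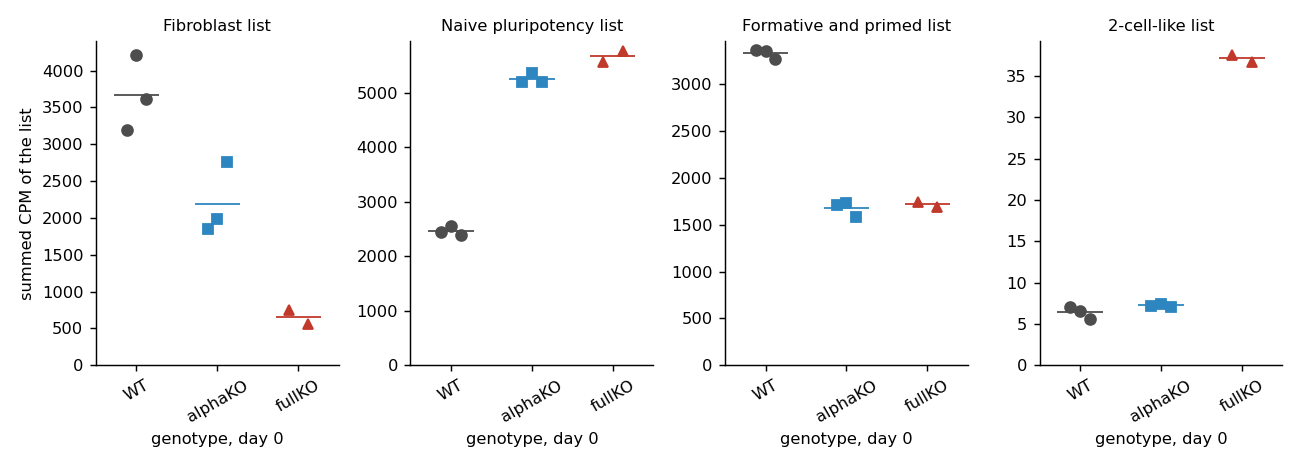
Summed CPM of 4 gene lists in each day 0 library of WT, alphaKO and fullKO, each axis starting at 0; points are libraries and lines are group means. Fibroblast genes are highest in WT and lowest in fullKO, naive genes are higher and formative genes lower in each knockout than in WT, and 2-cell-like genes are near 7 CPM in WT and alphaKO and near 37 CPM in fullKO.

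Signalling genes were divided. The counts here are to be set beside the 16.2% higher and 17.7% lower of all genes tested. Of 18 genes of the LIF and STAT3 pathway, which maintains naive cells, 8 rose and 6 fell. Klf4, given above, was among those that rose, while Gadd45g, a growth arrest and stress gene, fell from between 6.95 and 10.9 CPM to 1.61 and 1.26 CPM (-2.71 ± 0.22). Of 24 genes of the FGF and ERK pathway, which pushes ESC out of the naive state, 15 fell and none rose, with a median of -0.34. Egr1, an immediate-early target of ERK, fell from 67.1, 109 and 84.4 CPM to 25.9 and 22.1 CPM (-1.85 ± 0.14). Myc fell from between 127 and 137 CPM to 57.2 and 43.7 CPM (-1.40 ± 0.09), and Spry1, a feedback inhibitor of the pathway, fell by 0.89. Egr1 and Myc are also induced by handling and expressed by fibroblasts. In alphaKO Egr1 stood at 93.4, 102 and 109 CPM and Myc at 79.2, 71.8 and 66.8 CPM. In the list of immediate-early and handling genes 10 of 20 fell and 4 rose (2 without fullKO replicate 1), and its part and that of the fibroblast genes in the lower ERK targets was not tested.

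Of 28 Nodal and BMP genes, 9 rose (32.1%) and 8 fell (28.6%), against 16.2% and 17.7% of all genes tested. With fullKO replicate 1 left out, fewer fell. Inhbb, encoding the activin B subunit, rose from 23.8, 33.7 and 30.4 CPM to 206 and 208 CPM (2.82 ± 0.08), whereas Inhba, encoding the activin A subunit, fell from 21.9, 33.1 and 28.6 CPM to 3.51 and 3.17 CPM (-3.05 ± 0.23). In alphaKO Inhba stood at 14.6, 15.2 and 19.3 CPM, between the other genotypes. The part of fibroblast RNA in the fall of Inhba was not tested. Lefty2, a feedback inhibitor and target of Nodal, rose by 1.41 ± 0.06, and Bmp4, a ligand that helps to maintain ESC, rose from between 20.6 and 20.99 CPM to 47.4 and 41.6 CPM (1.10 ± 0.10). Fst, which traps activins, fell by 1.77 and in alphaKO stood at 13.7, 9.98 and 16.3 CPM, against 11.04 to 17.95 CPM in WT. Of 25 Wnt targets and feedback genes, 10 fell (40%) and 3 rose (12%), the rises below the share of all genes. Sfrp1, a secreted Wnt antagonist, rose from between 87.2 and 96.9 CPM to 434 and 438 CPM (2.22 ± 0.06), and Wnt8a, a ligand of the early embryo, fell from between 8.86 and 9.70 CPM to 2.62 and 2.05 CPM (-1.96 ± 0.23). Dkk1, another antagonist, had 0 counts in the fullKO libraries and 19 in the WT libraries, and was at least 4.17-fold lower, taking a floor of 3 counts over the group.

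Retinoic acid and Hox genes were mostly lower or at trace levels before any retinoic acid was given. Beside their counts go the shares of all genes tested, 16.2% higher and 17.7% lower. Of 22 retinoic acid genes 11 fell and 2 rose, the latter being 1 without WT replicate 2, WT replicate 3 or fullKO replicate 2. Crabp2, which brings retinoic acid to its receptors, fell from between 4.73 and 6.64 CPM to 2.499 and 1.98 CPM (-1.33 ± 0.18), and Cyp26b1, which degrades it, fell by 1.90. Of 39 Hox genes, 38 passed the filter, 17 fell and 2 rose, and the 2 became 1 without WT replicate 2 or fullKO replicate 1 and 0 without fullKO replicate 2. The median of the 38 was -1.10, or -0.98 with genes at 0 set to their bound. The 38 summed to no more than 39.7 CPM in any WT library and to 19.6 and 16.8 CPM in fullKO. Hoxb5 had 0 counts in fullKO and 33 in WT, at least 7.24-fold lower, and Hoxb2 had 0 against 27, at least 5.92-fold lower. Some Hox genes are also active in fibroblasts, whose markers were lower in fullKO. The part of fibroblast RNA in the falls of Hox and retinoic acid genes was not tested.

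Genes of the rare 2-cell-like state, which a small share of ESC enters at any time, were higher at very low levels. Of 21 listed, 18 passed the filter, and 17 of these rose and none fell, against 16.2% and 17.7% of all genes. Their median log2 fold change was 2.55. The filter used all 26 libraries, so a gene could pass it through fullKO libraries alone. Tdpoz3, with 0 counts in WT and 10 in fullKO at day 0, could not have been called lower. For such genes the lack of falls was set in advance. Fitted on the 5 day 0 libraries alone, with the filter run again on them, 11 rose. The rerun filter could also be passed through the fullKO libraries alone, so that count has the same limit. The 18 genes summed to 7.01, 6.58 and 5.61 CPM in WT and to 37.6 and 36.7 CPM in fullKO. Zscan4e, of the Zscan4 family that is switched on in that state, stood at 0.467, 0.246 and 0.198 CPM in WT and at 2.02 and 2.84 CPM in fullKO (2.94 ± 0.38, adjusted p = 1.35e-08). Usp17lb, a deubiquitinase gene of a repeated family, went from 0.643, 0.308 and 0 CPM to 2.62 and 2.71 CPM (2.99 ± 0.38). Both libraries of fullKO lay above all WT libraries for these genes. Zscan4, Usp17l and Tdpoz genes have near-identical copies, so the count of a single gene is uncertain. In alphaKO the list summed to 7.21, 7.46 and 7.08 CPM, close to WT, and in the direct test between the knockouts 16 of the 18 genes were higher in fullKO and none lower.

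Of 25 germline genes tested 11 rose (44%) and 4 fell (16%), against 16.2% and 17.7% of all genes tested. The falls lie near that share. Rhox5, a homeobox gene of the X-linked reproductive cluster, was among the largest rises of all, from 2.28, 2.40 and 2.24 CPM to 38.4 and 37.1 CPM (4.03 ± 0.16, adjusted p = 1.54e-24). Rhox6 rose from between 0.175 and 0.246 CPM to 1.96 and 1.19 CPM (2.90 ± 0.50). Of the 15 genes of that cluster 6 passed the filter and 3 rose. The call of Rhox9, the third, was lost with the replicate block, when the 5 libraries were fitted alone, and without WT replicate 1, WT replicate 3 or fullKO replicate 2. Imprinted genes fell more often than they rose, with 20 of 36 tested lower, 2 higher and a median of -0.62. Mest, a paternally expressed gene, stood at 8.18, 7.69 and 8.25 CPM in WT and at 1.07 and 1.32 CPM in fullKO (-2.75 ± 0.23), and H19, a maternally expressed RNA, fell from 133, 161 and 134 CPM to 35.8 and 24.4 CPM (-2.24 ± 0.17). H19 and several other imprinted genes are also strong in embryonic fibroblasts. The part of fibroblast RNA in these falls was not tested.

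Matrix and mesenchymal genes were lower, beside shares of 16.2% higher and 17.7% lower among all genes tested. Of 30 collagen and matrix genes 22 fell and 4 rose (median -2.14), and of 15 mesenchymal genes 13 fell and none rose (median -1.63). Col1a1, the main chain of fibrillar collagen I, stood at 644, 885 and 728 CPM in WT and at 100.4 and 67.0 CPM in fullKO (-3.16 ± 0.14). The 12 protein-coding genes that fell most, chosen by the same limits of 5 CPM and groups that did not overlap as the rises below, ran from -4.06 (Col8a1) to -5.71 (Tnfrsf11b, encoding the decoy receptor osteoprotegerin), and included Postn, Aspn, Prelp, Col12a1 and Adamts5, all genes of the extracellular matrix. Aspn went from 13.7, 16.97 and 14.98 CPM to 0.179 and 0.462 CPM. Postn, encoding periostin, went from 112, 143 and 117 CPM to 8.69 and 5.28 CPM (-4.14 ± 0.19). In the same libraries the fibroblast markers Dcn, Pdgfrb and Thy1 fell by 2.99, 2.63 and 2.22. Whether matrix genes fell within ESC was not tested.

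The 4 matrix genes that rose included Lama1 and Col13a1. Lama1, a chain of the first basement membrane laminin, rose by 1.35 ± 0.05, and Col13a1, a transmembrane collagen, rose from between 0.350 and 1.05 CPM to 8.39 and 8.85 CPM (3.74 ± 0.25). Epithelial genes also fell in part: 9 of 20 were lower (45%) and 3 higher (15%), against 17.7% and 16.2% of all genes tested. The same shares go beside the interferon counts below. Grhl2, an epithelial factor of the formative transition, fell from 49.9, 56.4 and 48.6 CPM to 14.3 and 12.9 CPM (-1.92 ± 0.12), and Cldn6, a tight junction gene, fell by 1.15. Of 22 interferon and antigen presentation genes 11 fell and 5 rose, with 3 and 2 rising without fullKO replicate 1 and 2. Oasl2, an interferon-induced gene, fell from between 5.17 and 6.19 CPM to 1.13 and 0.859 CPM (-2.52 ± 0.24).

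**Figure D3:**
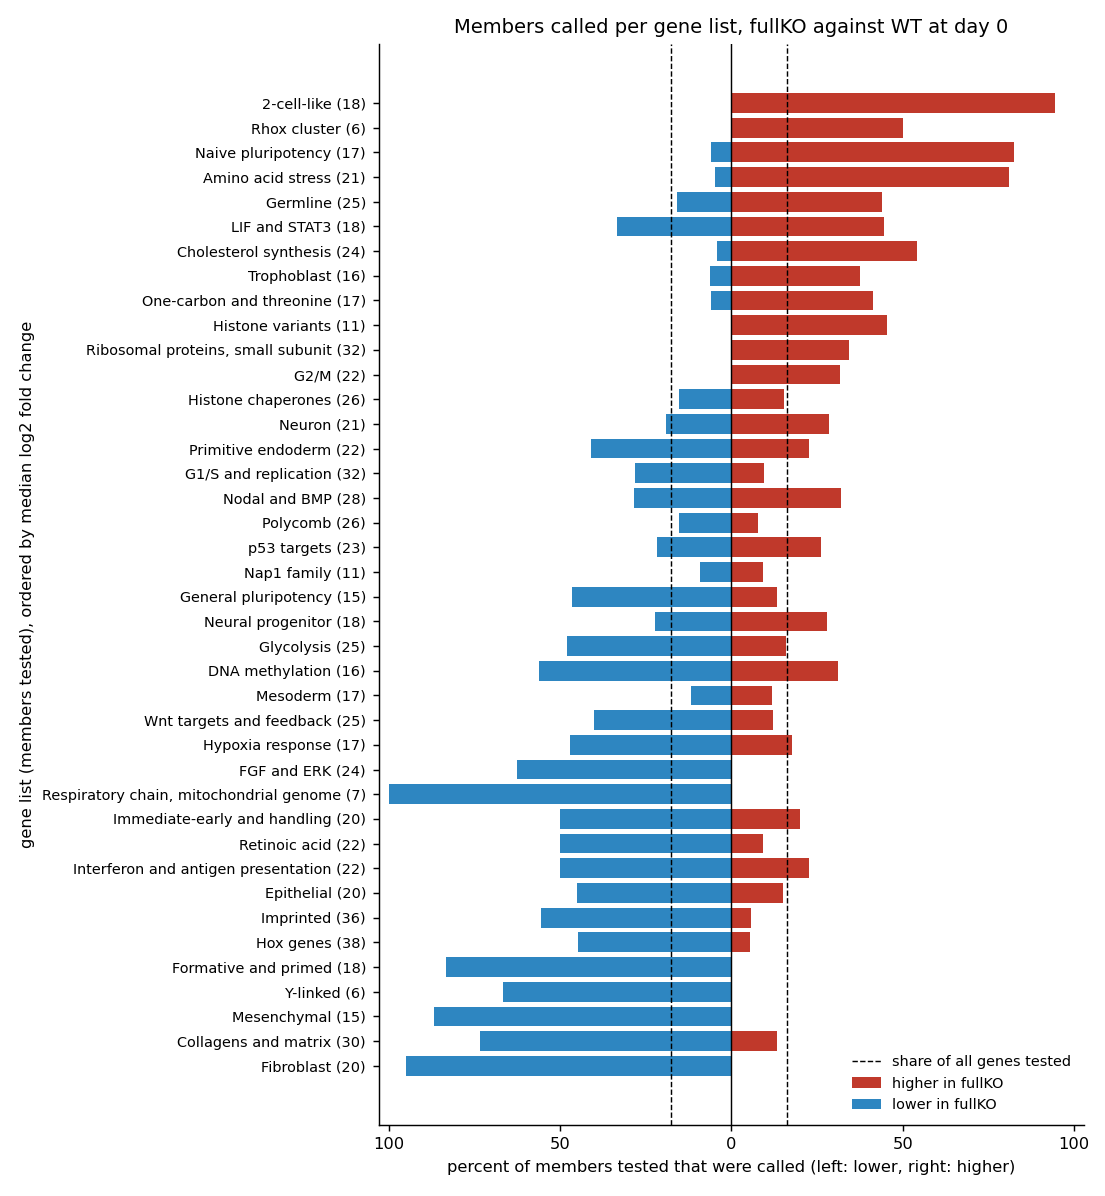
Share of tested members called higher (red, right) and lower (blue, left) in fullKO for each of the 40 gene lists, with the number tested in brackets and lists ordered by median log2 fold change. Dashed lines give the share of all genes called, 16.2% higher and 17.7% lower; 2-cell-like, naive and amino acid stress lists reach furthest right, and fibroblast, mesenchymal and formative lists are among those furthest left.

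Genes of the amino acid stress response, which the factor ATF4 activates when charged tRNA is short or the endoplasmic reticulum is strained, rose together. Of 22 listed 21 passed the filter and 17 rose (81%), against 16.2% of all genes tested. Their median was 0.38 against -0.006 for all genes. Chac1, which breaks down glutathione, went from 14.4, 17.8 and 10.8 CPM to 42 and 47.02 CPM (1.63 ± 0.14, adjusted p = 1.48e-13). Trib3, a pseudokinase that restrains the response, went from 25.1, 24.7 and 22.7 CPM to 70.2 and 72.3 CPM (1.56 ± 0.10), and Nupr1, a small stress-induced chromatin protein, from 11.2, 8.18 and 9.83 CPM to 32.2 and 30.7 CPM (1.69 ± 0.14). Atf3, a stress-induced repressor, went from between 1.17 and 1.58 CPM to 4.998 and 6.93 CPM (2.14 ± 0.24). It lies on chromosome 1 but past the raised stretch, between 190 and 200 Mb, where the median log2 fold change was 0.15. Asns, which makes asparagine, rose from between 220 and 236 CPM to 426 and 475 CPM (0.97 ± 0.05). Atf4 itself rose by 0.73 ± 0.04 and Ddit3, encoding CHOP, by 0.95 ± 0.14. Genes of the unfolded protein response in the endoplasmic reticulum were divided. Hspa5, the chaperone BiP and a marker of that response, fell by 0.10 (adjusted p = 0.0481). Its call was lost without WT replicate 2, WT replicate 3 or either fullKO library. Xbp1, a listed gene of the same response, rose by 0.45 (adjusted p = 6.59e-08). Whether that response as a whole differed was not tested.

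ATF4 pairs with C/EBP proteins on a composite element, searched here as TGATGNAA on either strand, which reads TTNCATCA on the other. The 250 bases before the RefSeq start (GRCm38.p6) held it in 7 of 20 listed genes with a window and in 5 of the 16 among them that rose, against 3.91% of the 27025 genes with a window. A match is a description of letters and not a measured site. The list was drawn up from ATF4 targets, so an excess over all genes was set in advance and says nothing on these data. Within the list the match was about as frequent among genes that rose (31.2%) as among all with a window (35%). The 4 windows below belong to genes that rose and hold a match, and are shown to let the element be read in place, 5′ to 3′ on the gene's strand with the match in capitals. They lie at chr1:191183334-191183583 (minus strand) for Atf3, chr7:126625471-126625720 (minus) for Nupr1, chr2:119350992-119351241 (plus) for Chac1 and chr6:7693210-7693459 (minus) for Asns.
Atf3: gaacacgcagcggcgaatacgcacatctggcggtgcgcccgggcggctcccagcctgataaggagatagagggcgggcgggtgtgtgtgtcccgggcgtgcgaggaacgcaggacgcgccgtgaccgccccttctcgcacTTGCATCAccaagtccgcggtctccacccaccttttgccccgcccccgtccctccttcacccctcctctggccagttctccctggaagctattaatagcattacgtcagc
Nupr1: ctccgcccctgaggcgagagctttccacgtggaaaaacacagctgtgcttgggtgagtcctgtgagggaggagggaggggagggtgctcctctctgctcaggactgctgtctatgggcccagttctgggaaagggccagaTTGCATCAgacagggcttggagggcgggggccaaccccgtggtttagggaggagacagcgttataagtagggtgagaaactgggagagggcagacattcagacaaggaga
Chac1: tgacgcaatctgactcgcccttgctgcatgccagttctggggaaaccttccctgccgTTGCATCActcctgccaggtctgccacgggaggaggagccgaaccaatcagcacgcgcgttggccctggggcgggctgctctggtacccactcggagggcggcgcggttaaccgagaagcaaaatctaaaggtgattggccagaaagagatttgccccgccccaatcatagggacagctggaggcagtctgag
Asns: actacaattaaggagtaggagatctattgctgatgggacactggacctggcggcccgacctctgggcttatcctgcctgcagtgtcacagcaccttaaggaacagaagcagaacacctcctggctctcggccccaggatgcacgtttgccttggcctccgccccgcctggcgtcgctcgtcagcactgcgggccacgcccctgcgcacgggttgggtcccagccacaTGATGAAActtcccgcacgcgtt
The match TTGCATCA begins 110 bases before the start in Atf3 and in Nupr1 and 193 bases before it in Chac1, while Asns holds TGATGAAA 23 bases before its start. Trib3 rose without a match in its window, and Slc7a11, the cystine transporter, has 2 matches and a log2 fold change of 0.01 ± 0.19.

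Metabolic lists moved by less. The shares of all genes tested, 16.2% higher and 17.7% lower, go beside each count here. Of 17 one-carbon and threonine genes 7 rose and 1 fell, or 3 fell with DESeq2 and 2 without WT replicate 3, the largest rise being Amt of the glycine cleavage system (0.49 ± 0.06), and Psat1 of serine synthesis rose from between 531 and 555 CPM to 717 and 765 CPM (0.45 ± 0.05). Of 24 cholesterol synthesis genes 13 rose and 1 fell (median 0.18), but 6 rose without fullKO replicate 1 and 7 without fullKO replicate 2, and the fall was lost without WT replicate 2 or fullKO replicate 2. Of 25 glycolytic genes 12 fell (48%) and 4 rose (16%), the rises near the share of all genes. Tpi1, a glycolytic isomerase, fell from 793, 791 and 736 CPM to 448 and 424 CPM (-0.83 ± 0.05), and Slc2a1, the glucose carrier GLUT1, fell by 0.68. Of 17 hypoxia-responsive genes 8 fell (47.1%) and 3 rose (17.6%), the rises again near that share. Bnip3, a mitophagy receptor, fell from between 35.97 and 40.4 CPM to 13.2 and 12.9 CPM (-1.57 ± 0.13). All 7 mitochondrially encoded respiratory chain genes that passed the filter fell, with a median of -0.35, mt-Cytb by 0.55.

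Cell cycle genes differed little. Among all genes tested 16.2% rose and 17.7% fell, to be set beside the counts here. Of 32 G1/S and replication genes 9 fell and 3 rose (median -0.04), among them Ccnd2, a G1 cyclin, which fell from 148, 189 and 181 CPM to 62.2 and 44.97 CPM (-1.68 ± 0.09), and Mcm6, a helicase subunit on chromosome 1, which rose by 0.92 ± 0.04. In alphaKO Ccnd2 stood at 98.0, 95.6 and 114 CPM, between the other genotypes. The part of fibroblast RNA in the fall of Ccnd2 was not tested. Of 22 G2/M genes 7 rose and none fell (median 0.04), and 3 rose without fullKO replicate 1. Of 23 p53 targets 6 rose and 5 fell. Gdf15, a secreted stress cytokine shared with the ATF4 response, rose from between 1.91 and 2.77 CPM to 8.03 and 6.74 CPM (1.57 ± 0.28), and Fas, a death receptor, fell by 2.66. Of 32 small-subunit ribosomal protein genes 11 rose and none fell, by 0.17 or less for those with the largest change, but 1 rose without fullKO replicate 1, 6 without fullKO replicate 2, 7 without WT replicate 3 and 6 with RLE scaling.

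Markers of early lineages did not move as blocks. Beside each count below stand the shares of all genes tested, 16.2% higher and 17.7% lower. Of 22 primitive endoderm genes 5 rose and 9 fell, the falls including Col4a1, Col4a2 and Pdgfra, which fibroblasts share, and the rises Hnf4a, a factor of visceral endoderm, at up to 2.44 CPM. Of 17 mesoderm genes 2 rose and 2 fell, with 1 of each without fullKO replicate 2 and 1 fall without WT replicate 1 or fullKO replicate 1. Of 16 trophoblast genes 6 rose and 1 fell, with 3 falling without WT replicate 1 and 2 without WT replicate 2. Tead4, a factor of the outer blastocyst cells, rose from between 5.81 and 7.36 CPM to 28.1 and 30.3 CPM (2.19 ± 0.12). Neural progenitor genes rose in 5 and fell in 4 of 18 cases (3 rose without fullKO replicate 2), and neuron genes rose in 6 and fell in 4 of 21. Among the latter Mapt, encoding tau, rose from between 4.06 and 5.68 CPM to 37.8 and 36.9 CPM (2.99 ± 0.14). Of 26 Polycomb genes 2 rose and 4 fell (1 rose without WT replicate 2, WT replicate 3 or fullKO replicate 1), Phc1, a subunit of Polycomb repressive complex 1, falling from between 1402 and 1473 CPM to 834 and 853 CPM (-0.78 ± 0.04).

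Among protein-coding genes with a mean of 5 CPM or more in either group and groups that did not overlap, the 12 largest rises ran from 2.82 (Inhbb) to 4.26 (Fgf18). Fgf18, a growth factor, went from 0.409, 0.246 and 0.528 CPM to 8.39 and 6.80 CPM (± 0.33, adjusted p = 1.49e-14). Serpinb6c, a serine protease inhibitor, went from between 2.16 and 3.01 CPM to 25.7 and 27.4 CPM (3.34 ± 0.20). Nkx6-3, Casq2, Stard8 and Pga5 reached no more than 23.97 CPM in fullKO. Tfcp2l1 and Inhbb, described above, reached higher levels than these.

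Chromosome 1 stood apart. Of its 518 genes averaging 10 CPM or more, 317 rose (61.2%) and 69 fell, with a median log2 fold change of 0.37. The medians of chromosomes 2 to 19 and X lay within 0.034 of 0. Along chromosome 1, cut into pieces of 10 Mb, the medians of the first 11 ran from 0.37 to 0.96, that of 110 to 120 Mb was 1.56 with 12 of 12 genes higher, that of 120 to 130 Mb was 0.93 with 15 of 15 higher, and that of 130 to 140 Mb was 0.21. Beyond 140 Mb the medians lay between -0.17 and 0.15. Tfcp2l1 (chr1:118627945-118685168) and Inhbb (chr1:119415465-119422248) lie in the piece with the highest median, and their rises of 2.91 and 2.82 are larger than that median. In fullKO against WT on days 2 and 4 the piece had medians of 1.44 and 1.48. In alphaKO at day 0 it had 1.06, and the whole chromosome 0.44. Chromosome copies were not measured, and their part in these rises was not tested. Without the genes of chromosomes 1, M and Y and 3 unplaced scaffolds, 2727 genes rose and 2932 fell. The naive list, which then lacked its members on chromosome 1 such as Tfcp2l1 and Prdm14, had 10 rises and 1 fall. That count does not tell members left out from calls lost.

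**Figure D4:**
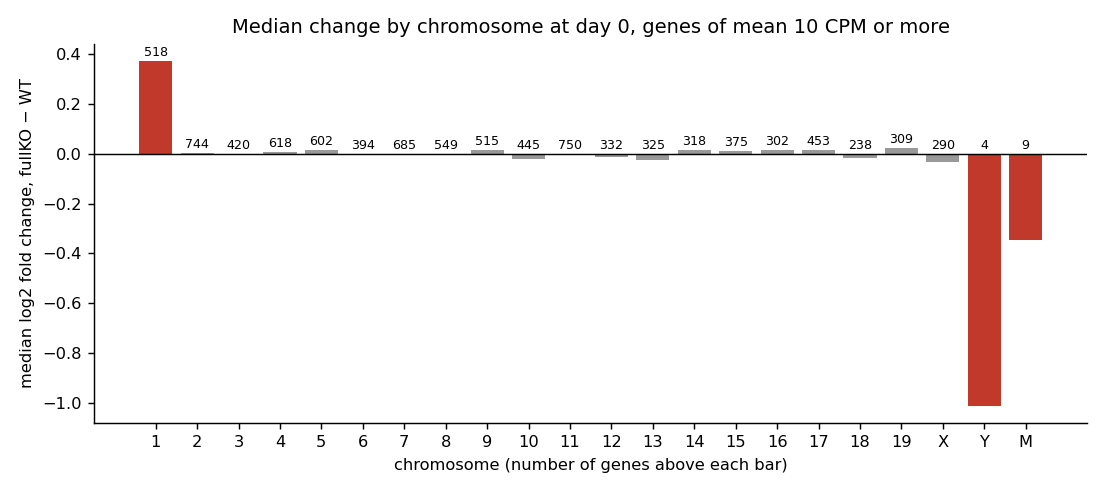
Median log2 fold change of fullKO over WT at day 0 for genes averaging 10 CPM or more on each chromosome, with the number of genes above each bar; red bars lie more than 0.1 from the median of all such genes. Chromosome 1 is raised (0.37), chromosomes Y and M are lowered, and the others lie near 0.

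Set directly against alphaKO at day 0, fullKO had 2685 genes higher (14.6%) and 2659 lower (14.4%) of 18412. Without fullKO replicate 1 the count of higher genes was 1503. This test shares the fullKO libraries with the comparison against WT, so the values are placed side by side only. Nanog was 0.39 ± 0.05 higher in fullKO than in alphaKO, while Klf4 and Tbx3 were lower by -0.70 and -0.83. Dnmt3b and Lef1, which stood below WT by -2.41 and -3.44 in alphaKO, were 0.75 and 1.45 higher in fullKO than in alphaKO. Dppa3 was 1.73 higher and Fgf5 did not pass the test (0.92, adjusted p = 0.0664). H2afy did not differ detectably (0.03, adjusted p = 0.766). Dnmt1, which in alphaKO differed from WT by -0.07, was lower in fullKO by -0.53. Col12a1 and Postn were lower in fullKO than in alphaKO by -3.96 and -3.41, and the summed fibroblast list was also lower in each fullKO library than in any alphaKO library.

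The libraries of days 2 and 4 hold the same genotypes after retinoic acid. They do not enter the day 0 means or fold changes, but they share the filter and the estimate of spread with the day 0 test. Of the 2983 genes that rose at day 0, 1585 (53.1%) were also higher in fullKO at day 2 and 379 (12.7%) were lower, where 23.8% of all genes were higher and 23.8% lower. Of the 3267 that fell, 1796 (55.0%) were lower at day 2 and 416 higher. At day 4, 1451 (48.6%) of the rises and 1575 (48.2%) of the falls were called in the same direction and 543 (18.2%) and 519 (15.9%) in the opposite one, with 25.1% of all genes higher and 24.5% lower. Nap1l1 stayed lower, by -1.23 ± 0.04 at day 2 and -0.79 ± 0.04 at day 4. Tfcp2l1 was 4.00 higher at day 2 and 4.01 at day 4, Nanog 4.14 and 4.44, and Esrrb 2.77 and 3.77, on the log2 scale. Pou5f1, which did not pass the test at day 0, was 2.28 and 3.50 higher. Rhox5 (3.13 and 2.52) and Zscan4e (2.29 and 3.32) were higher on each later day.

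Other genes did not keep their day 0 direction. Dnmt3b, Dnmt3a, Dnmt3l and Sox3 were lower in fullKO at day 0 and higher at days 2 and 4. Klf4 was 0.40 ± 0.08 higher at day 2 and did not pass the test at day 4 (-0.09, adjusted p = 0.38). Asns kept its rise (0.78 and 0.94), Trib3 was 0.05 at day 2 (adjusted p = 0.738) and 1.21 at day 4, and Atf3 was lower on each later day. Col1a1 stayed lower by -3.16 and -2.63 and Mest by -3.26 and -2.57, while Postn went from -3.98 at day 2 to -0.82 at day 4. Lef1 stayed lower, by -1.25 and -1.20.

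**Figure D5:**
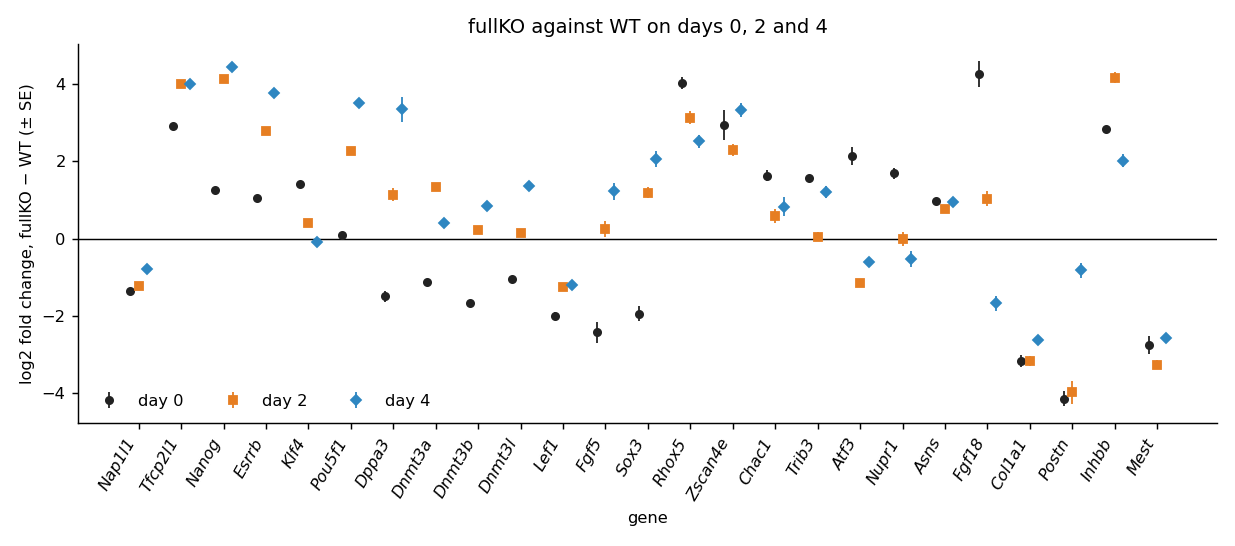
Log2 fold change of fullKO over WT ± SE at day 0 (black circles), day 2 (orange squares) and day 4 (blue diamonds) for 25 genes, with a line at 0. Nanog, Esrrb and Pou5f1 lie higher on the later days than at day 0, Dnmt3b, Dnmt3l, Sox3 and Fgf5 lie below 0 at day 0 and above 0 at day 4, and Col1a1 and Mest lie below 0 throughout.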

How the data were processed

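RNA was measured by poly(A) RNA-seq with a stranded kit, per the labels' protocols. The authors deposited raw read counts for every gene in 1 table. The submitters' processing notes name FastQC, STAR 2.7.1a and the mm10 build. How reads were assigned to genes, with or without strand and by which annotation, is not stated in these sources, so antisense pairs, overlapping genes and near-identical copies are uncertain. Of 55471 genes, 55230 matched GENCODE M21 by Ensembl ID.

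Counts of all 26 libraries were fitted in edgeR 4.0.16 (R 4.3.3) with 1 mean for each of 9 genotype-by-day groups, after filterByExpr and TMM scaling (17 residual degrees of freedom, biological coefficient of variation 0.0495). All groups share 1 estimate of spread because fullKO has 2 libraries at day 0. Total counts of the series ran from 13537267 to 20569706. The script was tested on simulated data. Libraries of a group differed beyond counting noise, so none was a copy.

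The members, the 40 lists and the tests were chosen with earlier results of these data known. The genes named were those of the Nap1 family, up to 4 called members of each list with the largest change, the best known pluripotency genes and Col1a1, and the 12 largest rises and falls among protein-coding genes with at least 5 CPM and groups that did not overlap, leaving out predicted genes; some genes that meet it are not reported here. Genes named beyond this rule (such as Asns, Atf4, Ddit3, Hspa5, Slc7a11, Otx2, Pou3f1, Lefty2, Lama1, Tet2, Zfp57, Uhrf1, Dcn, Pdgfrb and Thy1), the genes followed to later days, the motif and the windows were chosen after values were seen. Alternatives were DESeq2 1.42.0, RLE scaling, other count filters, a replicate block, a fit on the compared groups alone, leaving out each library and leaving out shifted chromosomes. Figures used Python 3.11.15 and matplotlib 3.10.9.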

Additional observations from a re-analysis of the deposited data

Results flagged for a closer look

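Some genes followed to the later days had fullKO libraries all on one side of WT at day 0 and all on the other side at day 2 or 4. The difference between days was not tested. Lower at day 0 but higher later were Dppa3 (log2 fold change of 1.14 at day 2 and 3.34 at day 4), Dnmt3a (1.33 and 0.41), Dnmt3b (0.23 and 0.84), Dnmt3l (0.15 and 1.36) and Sox3 (1.19 and 2.07). Fgf5 was 1.22 at day 4. Higher at day 0 but lower later were Atf3 (-1.14 at day 2 and -0.61 at day 4), Nupr1 (-0.52 at day 4) and Fgf18 (-1.68 at day 4).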

How the results depend on the processing

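Over the 7 alternative settings, genes higher in fullKO than in WT numbered 2712 to 2957 and genes lower 2921 to 3533. Leaving out each library in turn gave 2096 to 2772 and 2398 to 3061, and for changes of at least 2-fold 549 to 653 higher and 1045 to 1273 lower. Against alphaKO, 1503 to 2337 genes were higher, the lowest without fullKO replicate 1, and 1962 to 2763 lower. Of day 0 calls, 2726 to 3273 were shared with day 2 and 2393 to 2924 with day 4. With a group left at 1 library, that library is assumed to vary like the others. With the replicate number as a block, 2890 genes rose and 3200 fell. Deviations of same-numbered libraries from their group means correlated at -0.135 and -0.103 over genes, which are not independent replicates. With 2 fullKO libraries at day 0 the deviations of 1 mirror those of the other. The check therefore cannot decide whether the numbers pair the libraries.

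Of 178 named genes over 12 settings, 40 values in 20 genes lost their call and 5 in 2 genes (Set and Pou5f1) gained one. Sign reversed for Tspyl4 (-0.101 without WT replicate 2 and -0.197 without fullKO replicate 2, in a range up to 0.247), Sall4 (-0.008 without WT replicate 3 and -0.009 without fullKO replicate 2, up to 0.073) and Nap1l5 (-0.203 without fullKO replicate 2, up to 0.418), none of which was called. The cause was not tested. Depth limits the lists of low genes (2-cell-like, Hox and Rhox), where a few counts set a value.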
